A study of Mus musculus with 27 samples.

Results

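The 4 genes of the AMPA receptor subunits (Gria1, Gria2, Gria3 and Gria4, for GluA1 to GluA4) and the 5 genes of the kainate receptor subunits (Grik1, Grik2, Grik3, Grik4 and Grik5, for GluK1 to GluK5) were followed through 3 mouse cell types and 3 subcellular fractions. They were taken by gene symbol, and all 9 were found among the 37332 genes of the count table and the 53379 genes of the TPM table. Each of the 9 also passed the filter on low counts, which kept 18249 genes.

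Ribosomal RNA-depleted RNA longer than 200 nt was sequenced as stranded 100 bp read pairs from chromatin, soluble nucleoplasm and cytoplasm. The cell types were E14 embryonic stem cells grown with LIF (mESC), a neural progenitor line fed daily with EGF and FGF (mNPC), and primary cortical neurons cultured for 5 days (mCtx). With 3 biological replicates in each of 9 groups there were 27 libraries, of 11249862 to 19871198 counts. The labels name no genetic change and no drug in any group. mESC and mNPC are each a single line, whereas mCtx is a primary culture, which can hold several cell types.

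AMPA and kainate receptors are glutamate-gated ion channels, each a tetramer of subunits from its own family. AMPA receptors carry most fast excitatory current in the brain, and the edited form of GluA2 keeps calcium from passing through them. Kainate receptors sit on both sides of the synapse and tune release and excitability. GluK1, GluK2 and GluK3 can form channels alone, while GluK4 and GluK5 bind kainate tightly and need a partner from the first set.

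The labels were checked against marker genes in TPM. Of 8 pluripotency markers, all had a mean of 1 TPM or more in every mESC fraction, and 1 did so in each mNPC and mCtx fraction. Of 9 neuron markers, all reached 1 TPM in every mCtx fraction, and between 1 and 3 did so in mNPC and 4 or 5 in mESC, where they summed to 84.5 to 101 TPM in cytoplasm against 809 to 839 in mCtx. All 8 progenitor markers reached 1 TPM in mNPC, where they summed to 1375.4 to 1699.2 TPM in cytoplasm. The same 8 also did so in mCtx, at 274 to 345 TPM in cytoplasm, and 4 of them in mESC, at 147 to 151. All 5 astrocyte markers reached 1 TPM in every mNPC fraction and 2 or 3 of them in mCtx fractions, where they summed to 21.4 to 64.2 TPM. The 5 oligodendrocyte-lineage markers summed to 22.7 to 25.3 TPM in mNPC chromatin and 51.8 to 74.5 in nucleoplasm. In mESC these sums were 4.56 to 5.79 and 3.11 to 4.56. In mNPC, 3 of the 5 reached 1 TPM in chromatin and in nucleoplasm, and all 5 in cytoplasm, where they summed to 5.78 to 11.1. The astrocyte markers summed to 66.4 to 72.7 TPM in mNPC chromatin and 161 to 294 in nucleoplasm. By counts, Gria2, Gria3, Gria4, Grik1, Grik2 and Grik5 were higher in mNPC than in mESC chromatin, where 33.8% of all genes were higher. Grik3 was lower there (42.7% of all genes), and Gria1 and Grik4 did not pass the test. Of 4 microglia markers, 1 reached 1 TPM in mCtx chromatin and none in the other mCtx fractions. The part of other cell types in the receptor levels was not tested. In bulk RNA, fewer cells that express a gene and less RNA per cell cannot be told apart. The mESC libraries numbered 1 stood apart for Gria4, so results that involve mESC were also computed without them.

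The 9 genes are long and mostly intron. In mm10 their counted spans ran from 62.5 kb for Grik5 (chr7:25009853-25072369, minus strand) to 689.3 kb for Grik2 (chr10:49099460-49788766, minus strand). Gria1 lies at chr11:57011387-57330244 (plus strand), Gria2 at chr3:80684936-80802791 (minus), Gria3 at chrX:41400854-41678601 (plus) and Gria4 at chr9:4417899-4796234 (minus). Grik1 lies at chr16:87896196-88056176 (minus), Grik3 at chr4:125490700-125714173 (plus) and Grik4 at chr9:42518135-42944493 (minus). Exons made up 1.25% (Grik2) to 10.2% (Gria2) of the counted span, so the deposited counts, which cover introns, were mostly open to unspliced RNA. For Grik1 the counted span covered 40.6% of the GENCODE vM21 gene, so its counts missed the rest. For Gria2 and Grik2 it covered 97.1% and 99.3%. The part left out of these 2 genes was mostly exon sequence at the downstream end, so their counts missed some spliced RNA too. Small RNA genes annotated inside Gria2, Gria3, Gria4 and Grik4 held at most 2.06% as many counts as the gene around them, and Grik3 is described on its own.

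A pair of measures was used side by side. CPM is the read count over the whole gene span, scaled by the library total and its trimmed-mean factor, and compares 1 gene between libraries. TPM, as deposited, is scaled by transcript length and compares genes within a library. Values are mean ± SD of 3 libraries, fold changes are log2, SE is their standard error, and a gene is called where edgeR's quasi-likelihood p, adjusted by Benjamini-Hochberg over 18249 genes, is below 0.05.

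Gria2 went from at most 3 counts in any mESC library to at least 6924 in mNPC and mCtx chromatin libraries, and its promoter is shown for that reason. Of the 9 genes, RefSeq promoter windows were matched for 6 (Gria2, Gria4, Grik2, Grik3, Grik4 and Grik5). The 250 bases before the start of Gria2 (GRCm38.p6, chr3:80802836-80803085, minus strand, read 5′ to 3′ along the gene) are given here, with a match to the core of the RE1 element (here on the opposite strand) in capitals.

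Gria2 promoter: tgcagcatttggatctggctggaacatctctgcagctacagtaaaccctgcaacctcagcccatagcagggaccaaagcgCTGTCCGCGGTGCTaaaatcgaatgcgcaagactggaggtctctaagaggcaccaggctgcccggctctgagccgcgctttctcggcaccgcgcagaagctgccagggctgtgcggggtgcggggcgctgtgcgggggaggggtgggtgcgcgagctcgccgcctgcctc

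The match lies 157 to 170 bases before the start. It was found in 15 of 32851 windows (0.0457%), and in none of the other 5 receptor windows. This motif was picked after 12 motifs had been searched on both strands, of which 8 matched no receptor window. A longer form of the same element was among those 8 and occurred in 0.00913% of all windows. The right part of the element alone, GGACAG, which overlaps the match, was in Gria2 and in 18.7% of all windows. The GC box GGGCGG was in 3 of the 6 (Grik3, Grik4 and Grik5) and in 32.7% of all windows, and CCAAT was in Gria4 and in 33.8%. The left part of the RE1 element and its inner portion CAGCACC matched no receptor window and were in 0.301% and 5.73% of all windows. Neither the cyclic AMP response element (1.55% of all windows) nor its portion TGACGT (6.47%) matched one. The TATA box TATAAA was in 12.4% of all windows, the nuclear receptor site GAGGTCA in 4.56% and the NRF1 site in 0.499%, with no receptor among them. A match to letters is a description and was not tested as a binding site.

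Grik3 needs a note before its values are read, because another gene lies within it. Ftl2-ps, a processed pseudogene of the ferritin light chain, sits in intron 1 of 15 of Grik3, on the same strand (chr4:125504288-125504839). Over its 552 bases it is 98.7% identical to the Ftl1 transcript of GENCODE vM21, with 7 mismatches and a longest identical run of 306 bases.

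In mESC cytoplasm the 3 libraries listed 8479, 5043 and 4199 counts for Grik3 and 7886, 4854 and 3947 for Ftl2-ps, or 93.0% to 96.3% as many. In mESC nucleoplasm Grik3 had 5786, 2810 and 2097 counts and Ftl2-ps 4242, 2350 and 1715. In mESC chromatin Grik3 had 3515, 2371 and 2416 counts and Ftl2-ps 552, 169 and 169. The counts over Grik3 in mESC cytoplasm were thus nearly matched by those over a 552 bp stretch of its first intron, and those in chromatin were not. Ftl2-ps had 0 counts in all 9 mNPC libraries and at most 8 in any mCtx library, although Ftl1 itself had 18858 to 24129 counts in mNPC cytoplasm and 21498 to 30917 in mCtx cytoplasm. Whether reads were counted for both overlapping genes is not stated in the sources used here. Mir692-2, which shares 91 of its 109 bases with Ftl2-ps, also held 2192 to 4160 counts in mESC cytoplasm, so overlapping genes did not exclude each other. Grik3 was therefore also tested with the Ftl2-ps counts taken away, an alternative chosen after these values were seen.

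**Figure D1:**
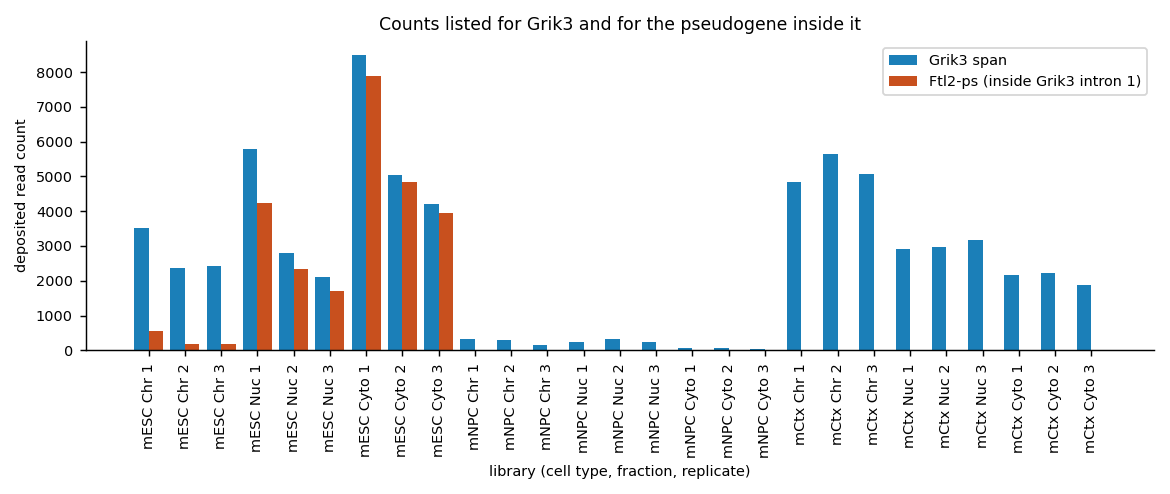
Deposited read counts (vertical axis) for the Grik3 span and for Ftl2-ps, inside its first intron, in each of 27 libraries (horizontal axis). In mESC cytoplasm the 2 bars of a library are nearly equal (8479 and 7886 counts in replicate 1), while mNPC and mCtx libraries have at most 8 counts for Ftl2-ps.

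Among the AMPA subunits, Gria2 (GluA2, the subunit whose RNA is edited at a pore codon) had the highest TPM in every mCtx fraction and was all but missing from mESC. The mESC libraries held 1, 0 and 1 counts of Gria2 (chromatin), 3, 0 and 0 (nucleoplasm) and 0, 1 and 0 (cytoplasm). The mNPC libraries held 8169, 9718 and 6924 counts (chromatin), 2629, 3069 and 2784 (nucleoplasm) and 498, 453 and 364 (cytoplasm). The mCtx libraries held 16072, 23115 and 21788 (chromatin), 19439, 21562 and 21903 (nucleoplasm) and 5020, 4688 and 3905 (cytoplasm). No mNPC or mCtx library came near the mESC level, and no fold is given against counts of 0 to 3. In TPM, Gria2 stood at 217 ± 20.8, 195 ± 14.3 and 23.4 ± 0.455 in mCtx chromatin, nucleoplasm and cytoplasm, and at 33.9 ± 1.18, 10.8 ± 3.00 and 1.69 ± 0.251 in mNPC. TPM in mESC chromatin was 0.38 to 0.55 although at most 1 read was counted there, so the 2 measures did not match at this low level.

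Gria1 (GluA1, a subunit tied to activity-dependent insertion of receptors) was counted mostly in mCtx. Its mCtx counts were 11585, 14072 and 12400 (chromatin), 5658, 5948 and 5805 (nucleoplasm) and 2388, 2461 and 1938 (cytoplasm). In mNPC it had 39, 21 and 14 counts in chromatin and 12, 3 and 8 in cytoplasm, and in mESC 32, 36 and 8 in chromatin and 2, 2 and 1 in cytoplasm. The ranges of mNPC and mESC overlapped in chromatin, and mCtx lay far above both. Between mNPC and mCtx chromatin the mean went from 1.48 ± 0.730 to 1052.8 ± 27.9 CPM, which is 9.46 on the log2 scale (SE 0.32, edgeR adjusted p = 7.4e-19). In cytoplasm it went from 0.456 ± 0.256 to 149 ± 2.35 CPM.

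Gria4 (GluA4, a subunit best known from fast interneurons and early development) had counts in all 3 cell types. Its mESC chromatin counts were 244, 1283 and 919, or 11.9, 67.0 and 48.3 CPM, with replicate 1 far below the others. In mNPC it stood at 277, 276 and 307 CPM in chromatin and 37.6, 32.2 and 38.6 CPM in cytoplasm. In mCtx it stood at 494, 577 and 638 CPM in chromatin and 69.1, 55.8 and 65.7 CPM in cytoplasm. The mCtx and mNPC ranges did not overlap in either fraction, yet the change was the smallest of the 9 genes in both: log2 0.99 (SE 0.34, adjusted p = 0.0113) in chromatin and 0.81 (SE 0.35, adjusted p = 0.0412) in cytoplasm. In cytoplasm that call was lost with DESeq2 and when mCtx replicate 1 or 3 or any mNPC replicate was left out (0.74 to 0.86), and in chromatin it was lost with library totals in place of trimmed-mean scaling (0.38). Gria3 (GluA3, encoded on the X chromosome) ran from 6.25 to 14.4 CPM in mESC chromatin, from 79.0 to 101 in mNPC and from 233 to 268 in mCtx. Its 3 cell types stood apart in all 3 fractions, in CPM and in TPM, with mCtx highest.

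Of the kainate subunits that form channels alone, Grik2 (GluK2, the most widely expressed of them in brain) had the highest TPM in each mCtx fraction. Its mESC chromatin counts were 213, 471 and 277, its mNPC chromatin counts 7417, 6399 and 4351, and its mCtx chromatin counts 17479, 25475 and 24295. In cytoplasm the counts were 8, 4 and 7 (mESC), 258, 170 and 121 (mNPC) and 1434, 1386 and 1143 (mCtx). The 3 cell types did not overlap in any fraction. From mESC to mNPC chromatin the log2 fold change was 4.46 (SE 0.29, edgeR adjusted p = 2.67e-13), and from mNPC to mCtx 2.35 (SE 0.26, adjusted p = 8.87e-09).

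Grik1 (GluK1, a subunit found in interneurons and sensory neurons) was low in mESC and mNPC. It had 0 counts in the 3 mESC cytoplasm libraries, 3 to 5 in mNPC cytoplasm, and 164, 153 and 133 in mCtx cytoplasm. In chromatin the mean was 1.89 ± 0.625 CPM in mNPC and 86.1 ± 10.8 in mCtx (log2 5.48, SE 0.22, edgeR adjusted p = 8.21e-17). Grik3 (GluK3, a low-affinity subunit) was lowest in mNPC, at 146 to 331 counts in chromatin and 47 to 72 in cytoplasm, against 4850 to 5643 and 1876 to 2231 in mCtx. With at most 8 counts for Ftl2-ps in any of these libraries, mCtx and mNPC differed by log2 4.82 (SE 0.27, adjusted p = 1.49e-14) in chromatin and 5.31 (SE 0.29, adjusted p = 9.45e-15) in cytoplasm.

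The high-affinity subunits differed in level. Grik5 (GluK5, the common partner of GluK2) stood at 17.4 ± 6.92 CPM in mESC chromatin, 53.2 ± 5.86 in mNPC and 116 ± 6.78 in mCtx. In cytoplasm it stood at 4.73 ± 0.207, 32.1 ± 1.08 and 81.5 ± 9.05 CPM, and the cell types did not overlap in either. Grik4 (GluK4) was the lowest of the 9 genes by TPM in every mCtx fraction, at 1.23 ± 0.0929, 0.833 ± 0.0252 and 0.457 ± 0.0231. Its chromatin CPM overlapped between mESC (15.9 to 27.6) and mNPC (14.6 to 22.4) and was higher in mCtx (106 ± 9.07).

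**Figure D2:**
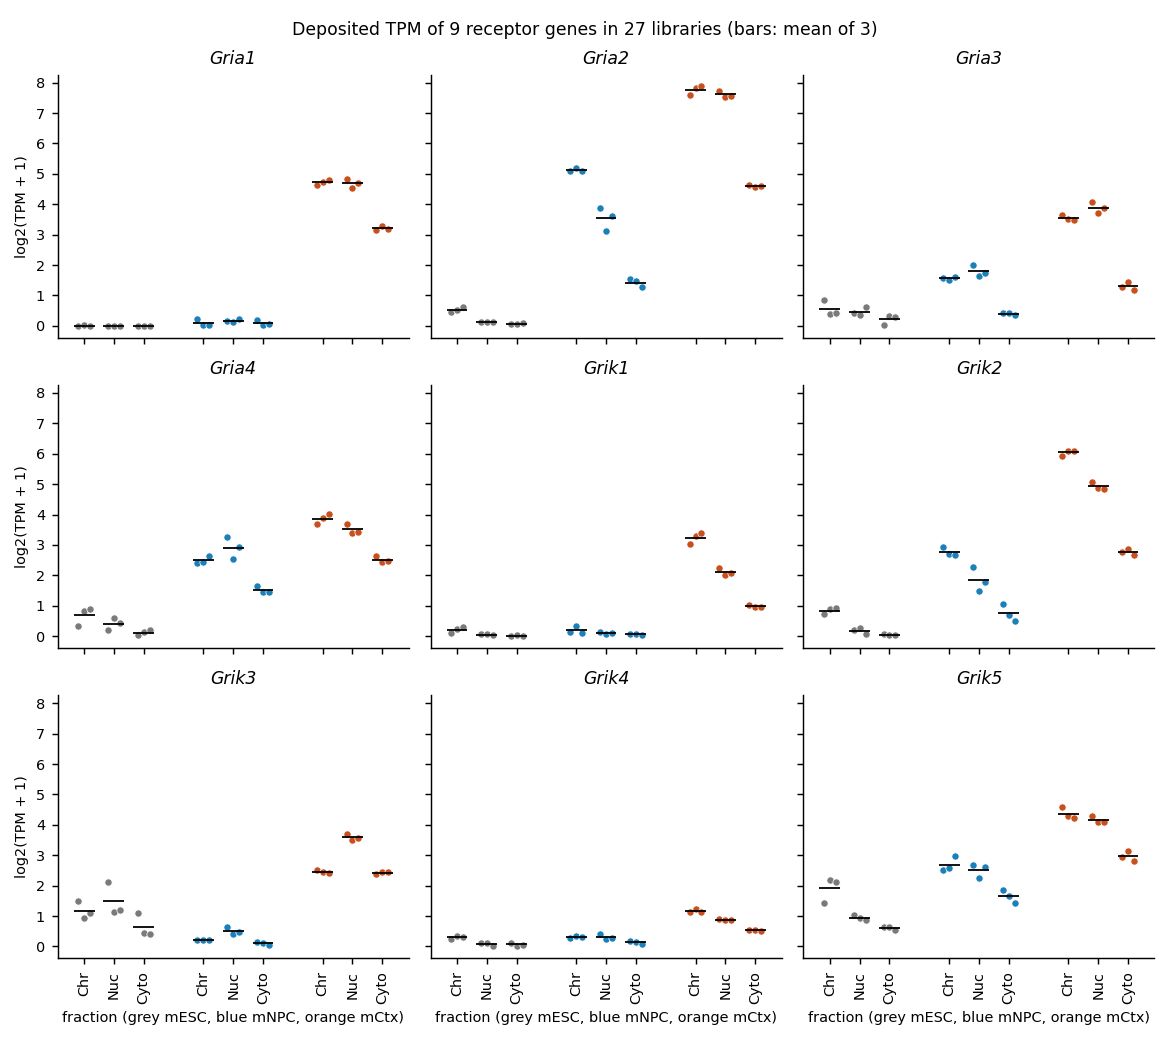
Deposited TPM on a log2(TPM + 1) axis for the 9 genes, 1 point per library and a bar at the mean of 3, by cell type (colour) and fraction (horizontal axis). Gria2 reaches the highest level (193.45 to 233.37 TPM in mCtx chromatin), while Gria1, Grik1, Grik3 and Grik4 stay below 1 TPM in each mNPC library.

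Ordered by TPM, mCtx chromatin ran Gria2, Grik2, Gria1, Grik5, Gria4, Gria3, Grik1, Grik3 and Grik4, and no neighbours in that order overlapped. In mCtx cytoplasm the order was Gria2, Gria1, Grik5, Grik2, Gria4, Grik3, Gria3, Grik1 and Grik4, where Grik5 overlapped Grik2 and Gria4 overlapped Grik3. By TPM, Grik2 thus came next after Gria2 on chromatin, while in cytoplasm it lay below Gria1 and its range overlapped that of Grik5. In mCtx nucleoplasm Grik2 overlapped Gria1, and Grik3 overlapped Gria4.

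Between cell types, the counts of receptor genes that passed the test were as follows. In mCtx against mNPC, 9 of 9 were higher in chromatin, where 30.2% of all genes tested were higher, 7 of 9 in nucleoplasm (36.9% of all genes) and 9 of 9 in cytoplasm (32.6%). The median log2 fold change of the 9 was 2.35, 2.74 and 3.05 in the 3 fractions, beside -0.18, 0.00 and 0.00 over all genes. None was called lower in any fraction (39.2%, 34.9% and 33.4% of all genes). By TPM, 9 of 9 were higher in each fraction, where 60.9%, 51.1% and 13.6% of all genes were higher and 5.3%, 4.4% and 8.72% lower. The genes that did not pass in nucleoplasm were Gria4, at 266, 290 and 258 CPM in mCtx and 214, 181 and 178 in mNPC, and Grik5, at 99.3, 96.6 and 94.2 CPM in mCtx and 82.4, 98.8 and 86.3 in mNPC. With rescaled TPM (divided by median-ratio size factors of the TPM table), 6 were higher in nucleoplasm (32.3% of all genes) and 1 lower (18.7%), which was Gria4. In mNPC against mESC, 6 of 9 were higher in chromatin (33.8% of all genes), 8 in nucleoplasm (35.7%) and 8 in cytoplasm (36.5%). Grik3 was the gene that was lower in each fraction (42.7%, 41.5% and 39.4% of all genes were lower), by log2 -3.21 in chromatin and -6.60 in cytoplasm. With the Ftl2-ps counts taken away it was lower by -3.04 and -2.49. With TPM, 5 of 9 passed as higher in mNPC chromatin (8.88% of all genes), 6 in nucleoplasm (5.82%) and 4 in cytoplasm (8.07%), and Grik3 as lower in each (52.7%, 33.4% and 24.4%), while with rescaled TPM Grik3 was at -0.50 in cytoplasm and did not pass.

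Some of these calls rested on few reads or few libraries. Without the mESC libraries numbered 1, Grik4 was no longer higher in mNPC cytoplasm (0.57 against 0.75), and in chromatin it was called lower in mNPC (-0.48 against -0.28), where rescaled TPM gave 0.16. Gria1 in cytoplasm was higher in mNPC by 2.13 (SE 0.80, edgeR adjusted p = 0.0186), which was lost when mESC replicate 3, mNPC replicate 1 or mNPC replicate 3 was left out (1.91, 1.75 and 1.96).

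**Figure D3:**
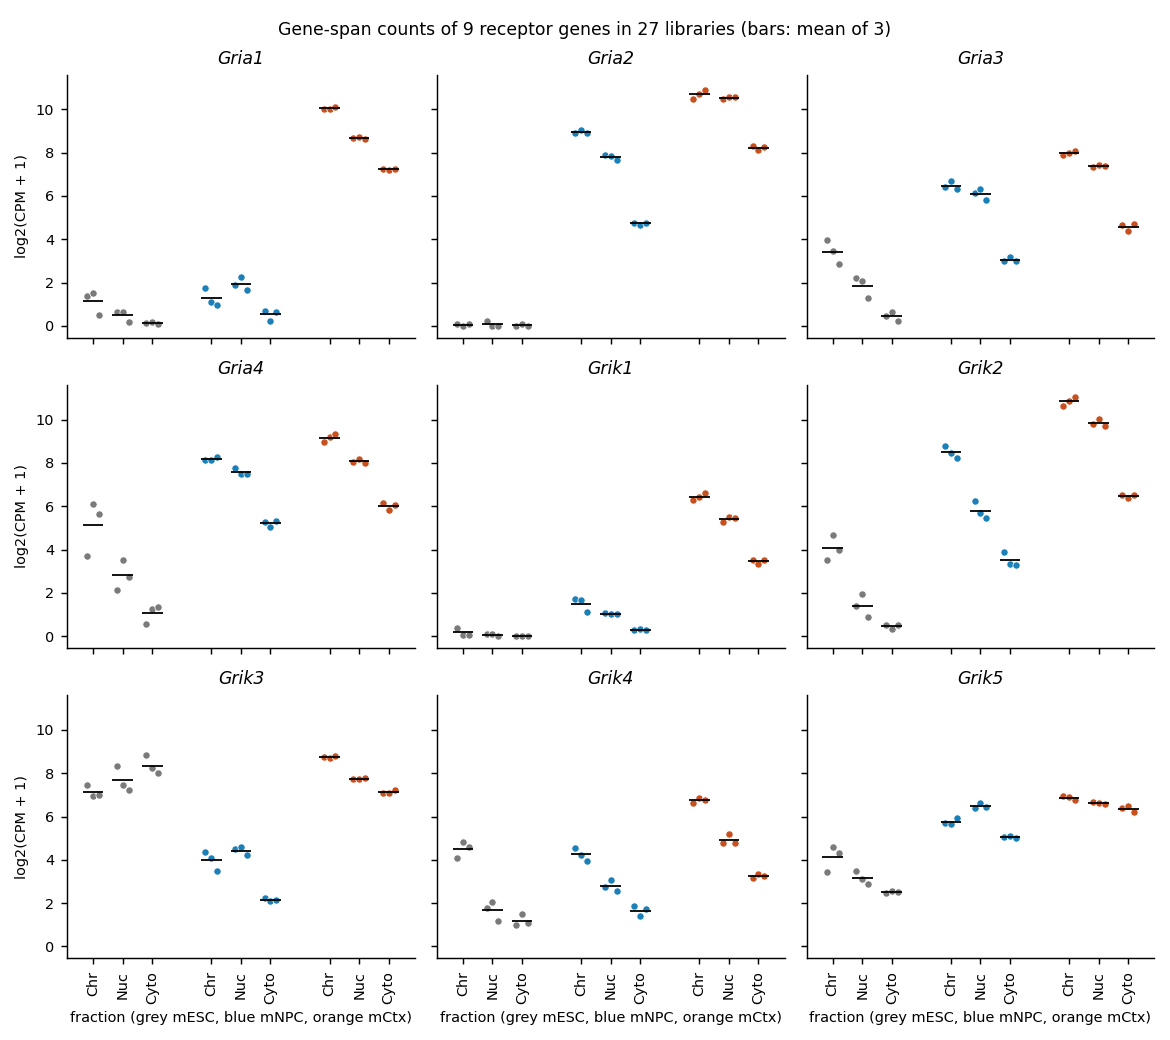
Gene-span counts on a log2(CPM + 1) axis for the 9 genes, 1 point per library and a bar at the mean of 3, by cell type (colour) and fraction (horizontal axis). Cytoplasm is below chromatin for each gene in mNPC and mCtx, while Grik3 in mESC runs from 124 to 172 CPM in chromatin to 254 to 457 in cytoplasm.

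The comparison of chromatin with cytoplasm sets a gene's share of the RNA at the template beside its share of the exported RNA. By gene-span counts, 9 of 9 receptor genes were higher in chromatin in mCtx (35.6% of all genes were higher) and 9 of 9 in mNPC (37%), and 7 of 9 in mESC (44.6%), where Grik3 was lower (32.9% of all genes) and Gria2 was too rare to tell (log2 0.63, SE 1.15, adjusted p = 0.670). The median of the 9 was 3.12 in mCtx, 3.00 in mNPC and 4.09 in mESC, beside 0.00, 0.06 and 0.36 over all genes. In mCtx the exceptions under other scalings were Grik5, which turned to -0.06 with library totals, and Grik3 and Grik4, which turned to -1.15 and -0.03 with rescaled TPM. Gria1 (0.11), Gria4 (0.02) and Grik5 (0.02) kept the sign with rescaled TPM but did not pass. In mNPC, Gria1 turned to -0.03 with rescaled TPM. In mESC, the Grik1 call was lost without the mESC libraries numbered 1 (2.89) and rested on 6, 1 and 1 counts against 0.

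By counts, Grik2 had the largest difference in each cell type: log2 5.46 (SE 0.42) for mESC, 5.11 (SE 0.30) for mNPC, 4.41 (SE 0.28) for mCtx. Its counts left out exon sequence at the downstream end, and how far that moved these differences was not tested. Its mCtx libraries held 1572.0, 1868.1 and 2124.8 CPM in chromatin and 89.6, 82.8 and 89.5 in cytoplasm. Grik5, the shortest gene of the 9, had the smallest difference in mCtx at 0.51 (SE 0.18, edgeR adjusted p = 0.0132), with 122, 117 and 109 CPM in chromatin against 82.5, 89.9 and 71.9 in cytoplasm. That call was lost when mCtx chromatin replicate 1 (0.44) or mCtx cytoplasm replicate 3 (0.43) was left out. Grik5 was also the smallest in mNPC, at 0.73 (SE 0.18). These orders hold for counts, and in mESC Gria4, at 5.25 (SE 0.48), was close to Grik2. On the log2(TPM + 1) scale Grik2 was the largest in mCtx (3.27), but Gria2 was in mNPC (3.70, Grik2 2.02). In mESC it was Grik5 (1.31, Grik2 0.79), while with 0.1 TPM added instead of 1 Grik2 was the largest there (2.74).

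For the AMPA genes in mCtx the log2 differences were 2.82 (Gria1), 2.49 (Gria2), 3.44 (Gria3) and 3.16 (Gria4), each with an adjusted p of 1.45e-08 or less. With rescaled TPM, Gria2 (1.67) and Gria3 (1.04) passed, and Gria1 and Gria4 did not. For Gria2, the 1445.5, 1695.1 and 1905.5 CPM of chromatin compared with 314, 280 and 306 in cytoplasm. In mNPC, Gria2 had 484, 532 and 478 CPM in chromatin and 26.2, 24.4 and 26.2 in cytoplasm, a log2 difference of 4.28 (SE 0.17). The fraction ranges of Gria2 did not overlap in either cell type, and the gap was wider in mNPC.

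On the log2(TPM + 1) scale the differences were smaller than by counts for 7 of 9 genes in mCtx and larger for Gria2 and Grik5. Adding 1 shrinks the differences of genes near 1 TPM. With 0.1 added instead, Grik1 was at 2.98 (2.25 with 1 added, 3.12 by counts) and Grik4 at 1.26, and the same 7 genes stayed smaller. With limma on log2(TPM + 1), 8 of 9 genes were higher in mCtx chromatin (62.1% of all genes), 6 in mNPC (32.9%) and 7 in mESC (51.3%), and none was lower (7.94%, 11.8% and 13.4% of all genes). The gap between the measures was widest for Grik4, at 3.64 by counts and 0.62 on the log2(TPM + 1) scale, and Grik3 was the gene that did not pass by TPM in mCtx. Grik3 had 4.49 ± 0.223 TPM in chromatin and 4.37 ± 0.153 in cytoplasm, where its counts differed by log2 1.64. Grik5 had 19.6 ± 2.79 and 6.84 ± 0.923 TPM, a difference of 1.39 on the log2(TPM + 1) scale against 0.51 by counts. Gria2 was at 3.16 by TPM against 2.49 by counts. After median-ratio rescaling of the TPM table, an alternative added after the data were seen, 4 of 9 were higher in mCtx chromatin (46.5% of all genes) and 1 lower (20.8%). Median log2 fold changes of all genes for mCtx chromatin against cytoplasm were 0.66 with TPM, 0.19 with rescaled TPM and -0.56 with library totals.

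**Figure D4:**
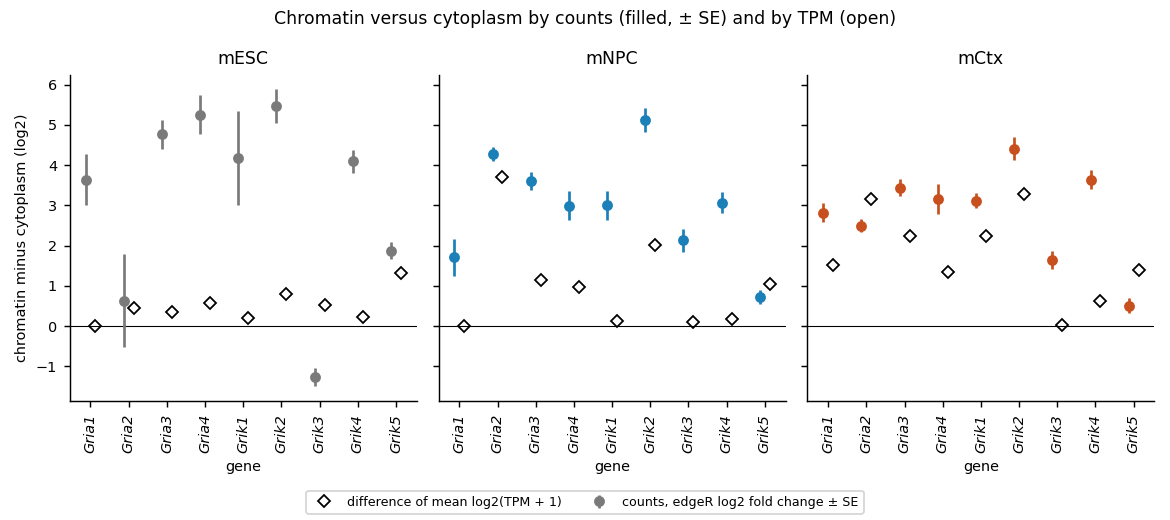
Chromatin minus cytoplasm for the 9 genes (horizontal axis) in each cell type, as edgeR log2 fold change of counts with its SE (filled) and as the difference of mean log2(TPM + 1) (open). In mCtx the counts run from 0.51 (Grik5) to 4.41 (Grik2), and Grik3 falls to 0.03 by TPM.

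For Grik3 in mESC the direction by counts depended on whether those of Ftl2-ps were included. As deposited, Grik3 stood at 172, 124 and 127 CPM in chromatin and 457, 300 and 254 in cytoplasm, or -1.26 on the log2 scale (SE 0.23, edgeR adjusted p = 2.16e-05). With the Ftl2-ps counts taken away, 2963, 2202 and 2247 counts were left in chromatin and 593, 189 and 252 in cytoplasm, and the value was 2.69 (adjusted p = 6.42e-08). After this subtraction the value had the sign of the other genes called in mESC, which is a description and does not test the subtraction. TPM also placed Grik3 higher in mESC chromatin, by 0.52 (adjusted p = 0.0281 with limma), and rescaled TPM gave 0.15, which did not pass. Because Ftl2-ps and Ftl1 share long identical stretches, the counts of Ftl2-ps are themselves uncertain.

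Between nucleoplasm and chromatin, 7 of 9 receptor genes were lower in nucleoplasm in mCtx by counts (26.5% of all genes were lower), 4 in mNPC (33.5%) and 6 in mESC (36.3%). With edgeR none was higher in mCtx (30.6% of all genes), 0 at an unadjusted p under 0.05 and 0 with DESeq2. In mNPC, 2 were higher (32.5% of all genes), Gria1 and Grik5, but 0 with library totals and 6 with rescaled TPM (19.1% of all genes). In mESC, 1 was higher (30% of all genes). This was Grik3, at 0.62 with its deposited counts and at -1.40 without those of Ftl2-ps. The call at 0.62 was also lost without nucleoplasm replicate 1 (0.20) or without chromatin replicate 2 (0.54) or 3 (0.55). In mCtx, Grik4 was lowest at -1.84 (SE 0.22), and Gria1 was at -1.36 (SE 0.21), with 1041.9, 1031.9 and 1084.5 CPM in chromatin and 410, 425 and 398 in nucleoplasm. Gria2 (-0.18, adjusted p = 0.318) and Grik5 (-0.26, adjusted p = 0.221) did not pass there, though both did with DESeq2 (-0.38 and -0.46). The Gria3 call by counts was lost without mCtx chromatin replicate 3 (-0.53). By TPM, Gria1 was level, at 25.4 ± 1.54 in chromatin and 24.9 ± 2.74 in nucleoplasm. Grik3 and Gria3 went in opposite directions by the measures. Grik3 had 4.74, 4.40 and 4.32 TPM in mCtx chromatin against 11.99, 10.37 and 10.87 in nucleoplasm (1.14, limma adjusted p = 4.55e-05), where its counts gave -1.01 (adjusted p = 0.000498). Gria3 had 11.39, 10.49 and 10.11 TPM against 15.65, 12.17 and 13.81 (0.35, adjusted p = 0.0231), where its counts gave -0.59 (adjusted p = 0.0133). In all, TPM called 2 genes higher (11.5% of all genes) and 3 lower (49.5%) in mCtx nucleoplasm, 1 higher (7.81%) and 2 lower (35.5%) in mNPC, and 0 higher (9.95%) and 4 lower (47.8%) in mESC. With rescaled TPM Gria1 and Gria2 of mCtx were at 0.32 and 0.23, above chromatin.

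The make-up of each family was taken as the share of its TPM sum, which cancels scaling between libraries. The AMPA sum was 266 ± 23.2 TPM in mCtx chromatin, 244 ± 19.9 in nucleoplasm and 37.8 ± 0.601 in cytoplasm. Gria2 made up 81.3% ± 0.778 of it in chromatin, 79.9% ± 0.773 in nucleoplasm and 61.8% ± 1.02 in cytoplasm. Gria1 made up 9.54% ± 0.279 in chromatin and 21.8% ± 1.25 in cytoplasm, and Gria4 5.11% ± 0.207 and 12.5% ± 0.958. By TPM, Gria2 thus had a smaller part of the cytoplasmic AMPA sum, and Gria1 and Gria4 larger parts, with no overlap between the fractions. By gene-span counts per kb the direction in mCtx was the opposite for all 3 genes, also with no overlap. Gria2 then made up 71.3% ± 1.74 in chromatin and 77.9% ± 0.292 in cytoplasm, Gria1 16.6% ± 1.65 and 14.4% ± 0.666, and Gria4 7.53% ± 0.122 and 5.14% ± 0.278. The direction of these shares in mCtx therefore depends on the measure. In mNPC, whose AMPA sum in cytoplasm was 3.95 ± 0.555 TPM, by TPM Gria2 made up 83.6% ± 1.36 of the chromatin sum and 42.7% ± 2.30 of the cytoplasmic one, and Gria4 11.4% ± 1.18 and 47.5% ± 2.19. In mNPC cytoplasm Gria4 stood at 1.87 ± 0.249 TPM and Gria2 at 1.69 ± 0.251. Counts per kb gave the same directions in mNPC, with Gria2 at 79.6% ± 0.909 in chromatin and 63.8% ± 0.562 in cytoplasm. Gria4 was at 14.3% ± 1.38 and 28.0% ± 1.37, below Gria2 in cytoplasm by that measure. Undivided, mNPC cytoplasm held 25.6 ± 1.02 CPM of Gria2 and 36.1 ± 3.45 of Gria4, with no overlap. The spans divided by are 117.9 kb for Gria2 and 378.3 kb for Gria4, so counts per kb cannot check the order of these genes there.

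In the kainate family, Grik2 made up 65.8% ± 2.67 of the sum in mCtx chromatin, 47.9% ± 0.804 in nucleoplasm and 31.6% ± 0.553 in cytoplasm. Grik5 went from 19.9% ± 3.32 to 36.9% ± 2.15 between chromatin and cytoplasm, and Grik3 from 4.55% ± 0.334 to 23.7% ± 2.17. In mNPC cytoplasm Grik5 made up 71.0% ± 5.05 of a sum of 3.09 ± 0.851 TPM. By TPM, Grik2 was thus the leading kainate gene on mCtx chromatin and Grik5 in cytoplasm, with ranges that did not overlap between the fractions for any of these 3 genes. Counts per kb gave the same leading genes, with Grik2 at 36.9% ± 3.58 in chromatin and 5.96% ± 0.532 in cytoplasm and Grik5 at 25.6% ± 2.86 and 61.0% ± 3.82. These shares divide by the whole span, introns included, which is 689.3 kb for Grik2 and 62.5 kb for Grik5. Undivided, mCtx cytoplasm held 87.3 ± 3.92 CPM of Grik2 and 81.5 ± 9.05 of Grik5, which overlapped. Counts per kb therefore cannot check the order of the 2 genes in cytoplasm. For Grik3 they gave 26.6% ± 1.48 and 29.1% ± 3.00, which overlapped. For mCtx chromatin against cytoplasm, exact permutation tests of the TPM shares gave p = 0.1 for each gene tested. With 3 libraries against 3 that is the smallest p possible, so the shares are given as a description.

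**Figure D5:**
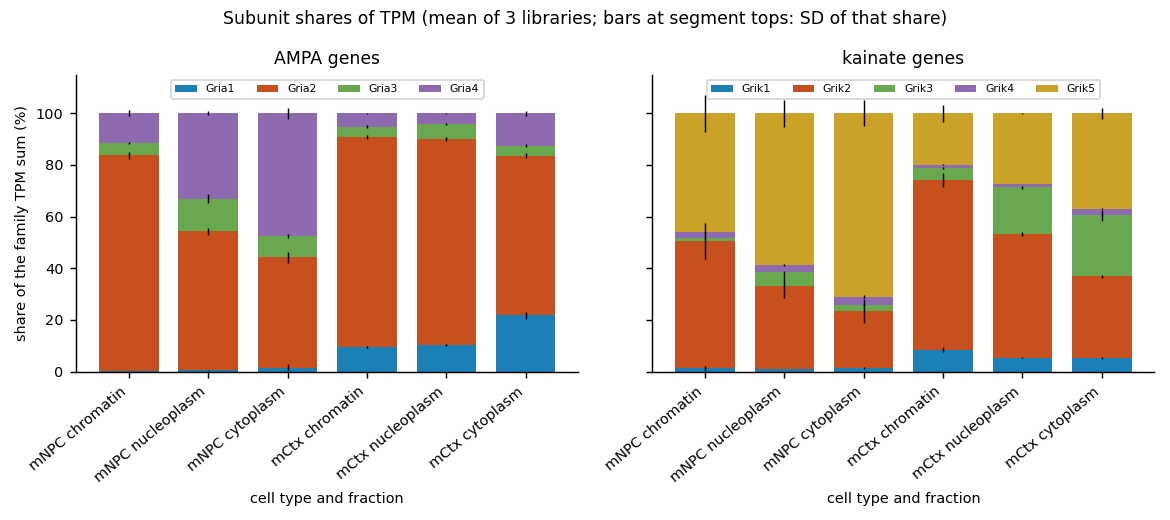
Mean share (vertical axis, %) of each gene in the TPM sum of its family for mNPC and mCtx fractions (horizontal axis), with the SD of each share at the top of its segment, n = 3. Gria2 goes from 81.3% in mCtx chromatin to 61.8% in cytoplasm, and Grik2 from 65.8% to 31.6%, whereas by counts per kb, not plotted, Gria2 goes from 71.3% to 77.9%.

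Whether the gap between chromatin and cytoplasm differed between cell types was tested as a difference of the 2 contrasts. Between mCtx and mNPC, 1 of 9 genes was lower (21.8% of all genes) and none higher with edgeR (12.2%), with 0 at an unadjusted p under 0.05 and 1 higher with DESeq2. The lower gene was Gria2, at -1.79 (SE 0.22, edgeR adjusted p = 4.6e-07). Gria2 was 3.38-fold higher in mCtx than in mNPC on chromatin and 11.7-fold higher in cytoplasm. It was lower under every alternative run, from -2.54 with library totals to -0.55 with TPM, and passed the test in each. With the replicate number as a block, Grik2 was lower as well (-0.73, edgeR adjusted p = 0.00499) and Gria1 higher (1.09, adjusted p = 0.0383). Deviations of same-numbered chromatin and cytoplasm libraries correlated at 0.162 to 0.311 in mNPC and at -0.132 to 0.095 in mCtx.

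Between mNPC and mESC, 3 genes were lower (23.5% of all genes): Gria4 (-2.26, SE 0.60), Grik4 (-1.03, SE 0.40) and Grik5 (-1.15, SE 0.28). With the replicate number as a block, Gria1 (-1.92) and Gria3 (-1.18) passed as well and 5 were lower. The Grik4 call was lost without any 1 of 8 libraries (-1.01 to -0.84). Between mCtx and mESC, Gria3 (-1.32, SE 0.47), Gria4 (-2.09, SE 0.60) and Grik5 (-1.37, SE 0.28) were lower (32.5% of all genes), and the Gria3 call was lost without the mESC libraries numbered 1 (-1.04). Single libraries also ended it: mESC chromatin replicate 1 (-0.98), cytoplasm replicate 1 (-1.35) and cytoplasm replicate 3 (-1.02). With the block, Grik2 also passed as lower in mCtx against mESC (-1.02, edgeR adjusted p = 0.0215, against 0.118 without it). With log2(TPM + 1), Gria4 turned to 0.40 and 0.78 in the 2 comparisons, Gria3 to 1.89, and Grik5 to 0.09 in the second. The values of 0.40 and 0.09 did not pass. With a pseudocount of 0.1 TPM, Gria4 (-0.66 in mNPC against mESC) and Grik5 kept the sign of the counts, while Gria3 stayed reversed (1.58 in mCtx against mESC). Grik3 was higher in both (16.7% and 17.7% of all genes), at 3.39 and 2.90, and turned to -0.55 and -1.05 once the Ftl2-ps counts were taken away. The comparisons share the mESC libraries. By TPM, 3 ratios were higher in mNPC against mESC (8.99% of all genes), 7 in mCtx against mESC (42.8%) and 5 in mCtx against mNPC (50.3%), and Gria2 in the last was the only one lower (2.71%).

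The receptors work with other proteins, of which 32 genes were listed here and all were tested, with trimmed-mean scaling alone. The list has 27 AMPA receptor auxiliary, assembly or scaffold genes, the kainate auxiliary genes Neto1 and Neto2, the delta receptor gene Grid1, and the RNA editing enzymes Adar and Adarb1. Between mNPC and mCtx chromatin, 24 of 32 were higher (30.2% of all genes) and 7 lower (39.2%), and in cytoplasm 23 were higher (32.6%) and 5 lower (33.4%). Adarb1, whose product edits the pore codon of GluA2, had 0.673 ± 0.0929 TPM in mNPC cytoplasm and 5.37 ± 0.146 in mCtx cytoplasm (log2 2.62 by counts, SE 0.15). Grid1 was higher in mCtx cytoplasm by 2.98 (SE 0.19). Neto1 was lower in mCtx than in mNPC cytoplasm (-0.52, SE 0.16, edgeR adjusted p = 0.00689), while Neto2 was higher (1.53, SE 0.14). The other genes lower in mCtx cytoplasm were Cpt1c (-1.53), Shisa8 (-1.31), Cacng5 (-0.65) and Dlg1 (-0.29).

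Between chromatin and cytoplasm in mCtx, 18 of the 32 were higher in chromatin (35.6% of all genes) and 8 lower (37.6%). All 8 lower genes were of the AMPA group, among them Cnih2 (-4.14), Nptx1 (-2.71) and Nptxr (-2.53). Shisa8 (-3.38) was called too, but at 0.0591 ± 0.0512 CPM in chromatin and 0.640 ± 0.221 in cytoplasm, and its TPM ran the other way, at 0.467 ± 0.101 and 0.120 ± 0.0346. Cnih2, a cornichon protein that rides with AMPA receptors, had 9.62 ± 0.543 CPM in mCtx chromatin and 170 ± 4.92 in cytoplasm, the opposite order to Gria2. At the other end were the scaffold gene Grip1 (5.46), Shisa9 (4.75) and Grid1 (4.60).

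Across the 27 libraries, the genes whose log2(CPM + 1) followed Gria2 most closely were Grm3 (Pearson r = 0.997), Epha5 (0.996) and Ptpro (0.991). Those closest to Grik2 were Daam1 (0.988), Cdh10 (0.986) and Satb1 (0.985). These correlations describe 9 groups of 3 libraries that share cell type and fraction, and carry no test.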

How the data were processed

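RNA of 3 fractions of mESC, mNPC and mCtx was measured in 27 libraries of 11249862 to 19871198 counts. The authors deposited raw read counts per gene over the whole gene span, and TPM. The chromatin columns are recorded under the unit expected counts because of how their names are read, but the deposited values are whole. The submitters' processing notes name STAR, featureCounts, kallisto and mm10, with no role or version. Whether reads in overlapping genes were counted more than once is not given in the sources used here.

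Counts were fitted with edgeR 4.0.16 (R 4.3.3; quasi-likelihood test, all 27 libraries, 1 coefficient per group, trimmed-mean scaling, filterByExpr, 18249 genes, 18 residual degrees of freedom, Benjamini-Hochberg threshold 0.05) for 15 comparisons. TPM was tested with limma 3.58.1 on log2(TPM + 1), for genes with a mean over 0.1 TPM in a group. DESeq2 1.42.0, other scalings, filters and a pseudocount of 0.1, a replicate block and leaving out each library were tried. The block was the replicate number for comparisons of cell types, and the replicate number within each cell type for fractions and ratios. The scripts were tested on simulated data. Rescaled TPM, taking Ftl2-ps counts from Grik3, and leaving out the mESC libraries numbered 1 were added after the data were seen. Replicate numbers were taken to pair the samples where deviations correlated above 0.1 in every pair. This held for chromatin with cytoplasm in mESC (0.393 to 0.581) and mNPC (0.162 to 0.311). It also held for nucleoplasm with chromatin in mESC (0.471 to 0.59), and in no other comparison. A low correlation cannot show that same-numbered samples came from different cultures.

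All 9 receptor genes are named. Of 32 companion genes (1 more listed gene is not reported here), those in counts of 5 or fewer were to be named, and the others named here were chosen after their values were seen. For the AMPA and the kainate gene of highest mean mCtx TPM, the 3 genes of highest correlation are named. The members and lists were chosen with earlier results of these data known. The labels call the replicates biological without saying how the cultures were separated, so p-values measure the spread between these samples. Fold changes compare shares of each fraction's RNA, and intervals between samples do not cover differences in total RNA.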

Additional observations from a re-analysis of the deposited data

Results flagged for a closer look

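For the following genes the gap between chromatin and cytoplasm differed between cell types by a test of the difference itself (edgeR, log2 scale, adjusted over all genes). Gria2 differed by -1.79 between mCtx and mNPC, where 21.8% of all genes were called lower. Between mNPC and mESC, Gria4 differed by -2.26, Grik4 by -1.03 and Grik5 by -1.15 (23.5% of all genes lower). Between mCtx and mESC, Gria3 differed by -1.32, Gria4 by -2.09 and Grik5 by -1.37 (32.5% of all genes lower). The medians of all genes were -0.20, -0.22 and -0.42 in the same order. Grik3 differed by 3.39 (mNPC against mESC) and 2.90 (mCtx against mESC), where 16.7% and 17.7% of all genes were called higher. Both values of Grik3 changed sign once the counts of Ftl2-ps were taken away, and also by TPM (-0.41 and -0.49). Other signs changed with log2(TPM + 1) as well, for Gria4 in both comparisons with mESC (0.40 and 0.78) and, in mCtx against mESC, for Gria3 (1.89) and Grik5 (0.09). With a pseudocount of 0.1 TPM the signs of Gria4 and Grik5 did not change, and that of Gria3 did (1.58). The Gria3 call was also lost without the mESC libraries numbered 1 (-1.04). The cause of each difference was not tested.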

How the results depend on the processing

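Values are log2 differences, or counts of the 9 receptor genes called. The count of genes called stayed within 1.5 times in all 30 comparisons and directions with median-ratio size factors and with no filter on low counts. Across the scalings of the counts, the median of all genes for chromatin against cytoplasm in mCtx was 0.00, 0.15 (median-ratio) and -0.56 (library totals). The cause of each change listed here was not tested, except where the setting itself removes samples or Ftl2-ps counts. Genes with a few counts, such as Gria2 and Grik1 in mESC, are limited by depth.

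By library totals, Grik5 in mCtx chromatin against cytoplasm turned to -0.06. For nucleoplasm against chromatin 0 genes were higher in mESC and 0 in mNPC, and for the ratios of chromatin to cytoplasm 5 were lower in mNPC against mESC, 5 in mCtx against mNPC and 6 in mCtx against mESC. DESeq2 called 5 ratios lower in mNPC against mESC and 1 higher in mCtx against mNPC.

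With the replicate number as a block, 5 ratios were lower in mNPC against mESC, and in mCtx against mNPC 1 was higher and 2 were lower. The block changed no other count by more than 1.5 times, and over the 9 genes it ended no call. It added the ratio calls of Gria1, Gria3 and Grik2 given in the report, and in nucleoplasm against chromatin in mNPC it added Gria3 (-0.38), Gria4 (-0.59) and Grik3 (0.47). In the comparisons where the numbers were not taken to pair the samples the correlations ran from -0.132 to 0.289.

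Taking the Ftl2-ps counts away left 0 genes lower for chromatin against cytoplasm in mESC, 0 higher for nucleoplasm against chromatin in mESC, and 0 ratios higher in either comparison with mESC. Grik3 turned to 2.69 and -1.40 in the first 2 of these and to -0.55 (mNPC against mESC) and -1.05 (mCtx against mESC) in the ratios. Leaving out the mESC libraries numbered 1 left 2 genes lower in mNPC against mESC chromatin.

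The TPM measures moved most. With log2(TPM + 1), for chromatin against cytoplasm 0 genes were lower in mESC, where Grik3 turned to 0.52. For nucleoplasm against chromatin, 0 were higher in mESC, 1 was higher and 2 lower in mNPC, and 2 were higher and 3 lower in mCtx, where Gria3 turned to 0.35 and Grik3 to 1.14. For mNPC against mESC, 4 were higher in cytoplasm and Grik1 turned to -0.02 in chromatin. Of the ratios, 3 were higher and 0 lower in mNPC against mESC, 5 were higher in mCtx against mNPC, and 7 were higher and 0 lower in mCtx against mESC. In mNPC against mESC the ratio turned for Gria3 (0.81), Gria4 (0.40) and Grik3 (-0.41). In mCtx against mESC it turned for Gria3 (1.89), Gria4 (0.78), Grik3 (-0.49) and Grik5 (0.09). Without the filter on low TPM these values were the same, save that 0 genes were higher for nucleoplasm against chromatin in mNPC and 0 lower for mNPC against mESC in cytoplasm.

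With a pseudocount of 0.1 TPM, 0 genes were lower in mESC chromatin against cytoplasm, where Grik3 turned to 1.09, and Gria1 turned to -0.02 in mNPC. For nucleoplasm against chromatin, 0 were higher in mESC, 1 was higher and 2 lower in mNPC, and 1 was higher and 2 lower in mCtx, where Gria3 turned to 0.37 and Grik3 to 1.28. For mNPC against mESC, 5 were higher in cytoplasm, and Grik1 turned to -0.10 in chromatin. Of the ratios, 1 was lower in mNPC against mESC, where Grik3 turned to -0.50, 2 were higher in mCtx against mNPC, and 4 were higher and 0 lower in mCtx against mESC, where Gria3 turned to 1.58 and Grik3 to -1.05.

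With rescaled TPM, chromatin against cytoplasm gave 0 genes lower in mESC, and 4 higher and 1 lower in mCtx. Grik3 turned to 0.15 in mESC and -1.15 in mCtx, Grik4 to -0.03 in mCtx and Gria1 to -0.03 in mNPC. For nucleoplasm against chromatin, 3 were lower in mESC, 6 were higher and 1 lower in mNPC, and 4 were higher and 2 lower in mCtx, where Gria1 turned to 0.32, Gria2 to 0.23, Gria3 to 0.65 and Grik3 to 1.33. For mNPC against mESC, 0 were lower in nucleoplasm and 0 in cytoplasm, and Grik4 turned to 0.16 in chromatin. For mCtx against mNPC, 1 was lower in nucleoplasm. Of the ratios, 3 were higher and 0 lower in mNPC against mESC, 1 was higher and 4 lower in mCtx against mNPC, and 4 were higher in mCtx against mESC. In mNPC against mESC the ratio turned for Gria3 (0.88), Gria4 (0.27), Grik3 (-0.08) and Grik4 (0.01), and in mCtx against mESC for Gria3 (0.87) and Grik3 (-1.30).

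Leaving out 1 library at a time moved 8 of 216 counts by more than 1.5 times. Genes higher in nucleoplasm than chromatin ranged from 0 to 1 in mESC (0 without nucleoplasm replicate 1 or chromatin replicate 2 or 3) and from 1 to 3 in mNPC (1 without chromatin replicate 2 or 3 or nucleoplasm replicate 2). Ratios higher in mCtx against mNPC ranged from 0 to 1, with 1 when mNPC chromatin replicate 1 or mNPC cytoplasm replicate 2 was left out. Where a group kept 2 libraries, its spread was pooled with that of the other groups.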
